A study of Mus musculus with 10 samples.

Results

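The Hippo pathway components described here are 10 genes, taken by name from the 24411 genes that each table lists: Yap1, Wwtr1, Lats1, Lats2, Stk3, Stk4, Nf2, Sav1, Amot and Amotl2. All 10 were present in all 10 libraries. Their messenger RNA was measured in mouse morulae, the compacting embryo just before the blastocyst. In vitro fertilised one-cell embryos were microinjected 3 to 6 h after insemination with an antisense oligonucleotide (ASO), a short synthetic strand that pairs with a transcript, and were grown in KSOM medium to the morula stage at 72 h. The ASO-Control group received a non-targeting oligonucleotide and the Mettl3-ASO group one against Mettl3, the gene of the catalytic METTL3 protein in the complex that places N6-methyladenosine (m6A) on messenger RNA. Both groups therefore carried an injected oligonucleotide, and no uninjected embryos were analysed here. Each group had 5 libraries, each made from 10 embryos with the SMART-Seq v4 PLUS kit. Replicates 3 to 5 of both groups are labelled batch 2, and replicates 1 and 2 carry no batch label and are called untagged. The labels give the outbred strain ICR for the untagged libraries only.

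The Hippo pathway is a kinase cascade that ends at 2 related coactivators, YAP (from Yap1) and TAZ (from Wwtr1). The MST kinases (from Stk4 and Stk3), held by the scaffold Sav1, activate the LATS kinases, which phosphorylate YAP and TAZ and keep them out of the nucleus. In the morula the cascade is active in inner cells, where angiomotins (Amot, Amotl2) and Nf2 at cell contacts recruit the LATS kinases. In outer cells YAP and TAZ enter the nucleus and act with TEAD4 on trophectoderm genes such as Cdx2 and Gata3. Most of this control acts on proteins, by phosphorylation and location, which RNA sequencing does not measure.

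The libraries held 9905830 to 13530284 expected counts when untagged and 21412857 to 32327283 in batch 2. Mettl3 had 244 to 446 counts in each ASO-Control library and 0 to 2 in each Mettl3-ASO library. All 11 morula markers were detected. Of the 10 that were tested, 2 were called higher and 5 lower in Mettl3-ASO by the edgeR test given below. Of all tested genes, 25.4% were called higher and 24% lower. Summed markers of cumulus cells, which surround the oocyte, came to 0.14 to 0.72 FPKM (fragments scaled to transcript length and library total) in ASO-Control and 0.39 to 1.69 in Mettl3-ASO, with Has2, Amh, Inhba and Lhcgr at 0 throughout. Summed sperm markers were at 0.51 to 2.35 and 0.25 to 3.63 FPKM, with Akap4 at 0. The 12 oocyte markers together were at 3.82 to 8.24 FPKM in ASO-Control and 14.3 to 29.7 in Mettl3-ASO, and the 9 listed markers of the 2-cell stage at 1.74 to 14.9 and 750 to 2415. Summed oocyte and 2-cell markers therefore did not overlap between the groups, and their part in the values of the Hippo genes was not tested. The labels do not say whether libraries of a group came from separate fertilisations, so each p-value reflects the spread of these particular libraries, part of which may be technical.

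Since Mettl3 writes m6A, the transcripts of the 10 genes were searched for GGACT, a common form of the sequence in which m6A is placed, on the transcript strand of 1 GENCODE model per gene. It occurred in all 10 transcripts, at a median of 0.791 per kilobase, beside 1.03 over 8813 tested genes with a matched transcript. Within 100 bases either side of the end of the stop codon, where m6A is often dense, it occurred in Wwtr1, Lats2 and Amotl2, which is 3 of 10, beside 24.6% of 8234 genes. The sites nearest the stop codon are printed for those 3 genes and for Yap1, Stk4 and Sav1, which were called higher in Mettl3-ASO morulae. They come from GENCODE transcripts on GRCm38 (mm10) and run in the direction of the transcript. Capitals mark GGACT.
Wwtr1: tgacctcgGGACTttggagtc
Lats2: ggggatgcGGACTtggaaggt
Amotl2: ccctctctGGACTctatagct
Yap1: ggatggagGGACTccgaatgc
Stk4: caagagctGGACTgtggagga
Sav1: acaaaacaGGACTtggaacct
The stretches lie at chr3:57459002-57459022 (minus strand) for Wwtr1, chr14:57691321-57691341 (minus) for Lats2, chr9:7938480-7938500 (minus) for Yap1 and chr2:164151675-164151695 (plus) for Stk4, all in coding exons. The Amotl2 stretch is coding too and crosses an exon junction between chr9:102730960-102731658 (plus). The Sav1 stretch lies in the 3′ UTR at chr12:69965683-69965703 (minus). Positions of the A of the word were counted in bases from the end of the stop codon, with negative values upstream. The A lay at −86 in Wwtr1, −43 in Lats2 and −58 in Amotl2, which were printed because of this nearness. It lay at −431 in Yap1, −146 in Stk4 and 447 in Sav1. In the members not printed, which had no call, it lay at −656 in Lats1, −274 in Stk3, 474 in Nf2 and 119 in Amot. These matches describe letters only, and m6A itself was not measured in the data used here.

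TEAD proteins, through which YAP and TAZ act, bind GGAATG. In the RefSeq promoter windows of GRCm38.p6, which are 300 bases long around a gene's start, this word was present on either strand in 5 of the 9 members that have a window (Yap1, Wwtr1, Sav1, Lats2 and Amotl2), and in 16.6% of 27025 genes. Lats2 and Amotl2 are known targets of YAP and TAZ in other cells. The windows of Lats1, Stk4, Nf2 and Amot did not hold these letters. The 5 matches are printed in the direction of the gene, with GGAATG or its reverse complement CATTCC in capitals.
Yap1: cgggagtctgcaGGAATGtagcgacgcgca
Wwtr1: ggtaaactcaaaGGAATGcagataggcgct
Sav1: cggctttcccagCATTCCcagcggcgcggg
Lats2: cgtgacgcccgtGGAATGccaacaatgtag
Amotl2: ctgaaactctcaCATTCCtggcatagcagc
They lie at chr9:8004720-8004749 (minus strand), chr3:57576029-57576058 (minus), chr12:69987091-69987120 (minus), chr14:57746102-57746131 (minus) and chr9:102717727-102717756 (plus).

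In control morulae every step of the cascade was represented, at modest levels. Means over the 5 ASO-Control libraries ran from 13.5 ± 0.784 FPKM (SD, n = 5) for Stk4 down to 1.42 ± 0.381 for Lats1. The genes fell into 3 tiers whose library ranges did not overlap at the borders. Stk4, Wwtr1 (13.0 ± 3.05), Nf2 (11.4 ± 1.31) and Lats2 (10.4 ± 1.64) formed the upper tier, with overlapping ranges between neighbours. Amotl2 (5.42 ± 2.16), Amot (5.02 ± 2.44), Stk3 (4.5 ± 1.55), Yap1 (3.36 ± 1.14) and Sav1 (3.03 ± 0.859) formed the middle tier, again overlapping from each to the next. Lats1 stood alone below them in every control library. In Mettl3-ASO the same 4 genes had the highest means, with Stk4 first at 18.1 ± 2.87 FPKM (SD, n = 5), and Lats1 was lowest at 1.46 ± 0.349. Their border was not kept there, since Nf2 went down to 7.87 FPKM while Sav1 reached 8.74.

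**Figure D1:**
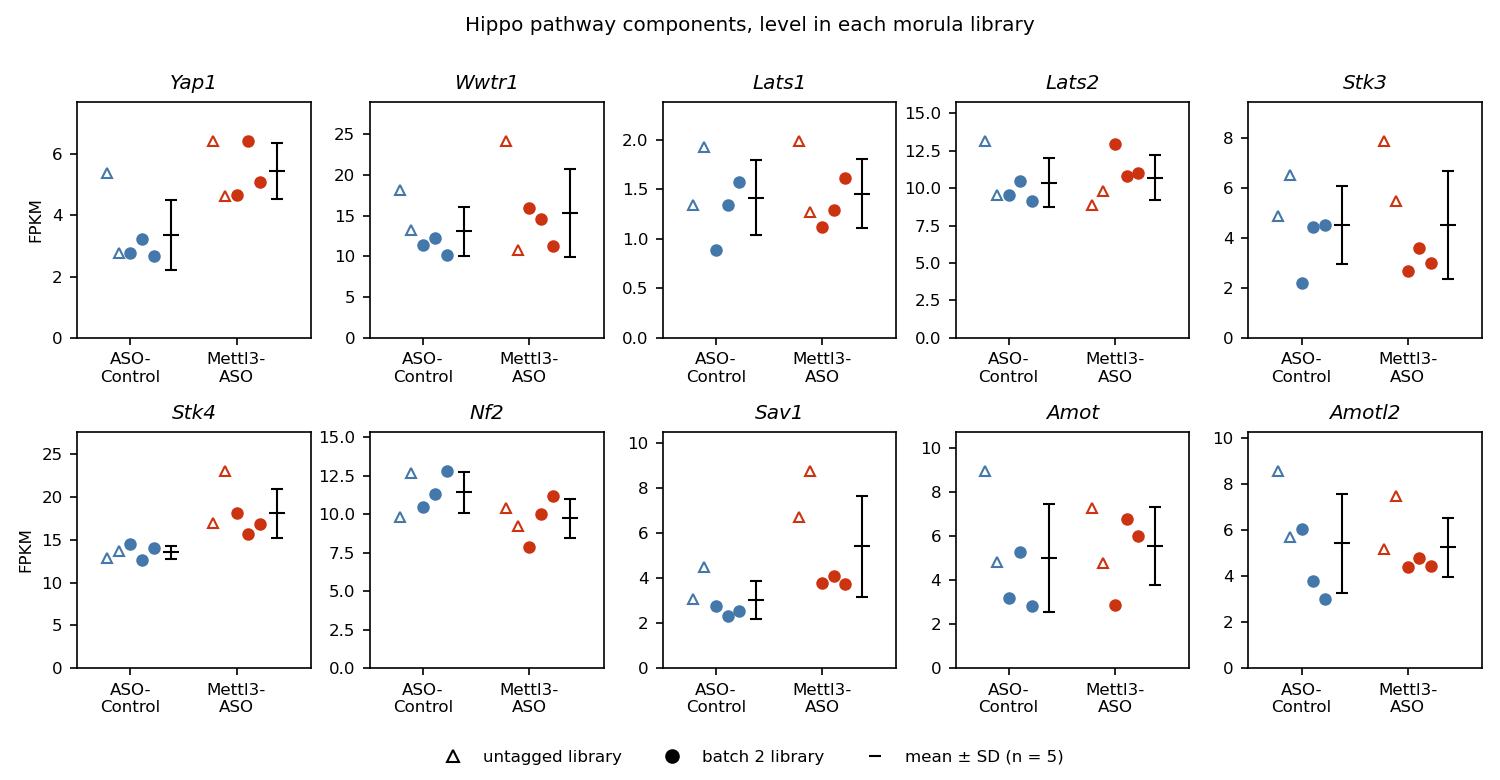
FPKM (vertical axis, from 0, a separate scale per gene) of the 10 Hippo genes in each library of the 2 groups; open triangles are untagged libraries, filled circles batch 2, and bars the mean ± SD of 5 libraries. Only Stk4 has all 5 Mettl3-ASO libraries (15.61 to 22.98) above all 5 ASO-Control libraries (12.58 to 14.45).

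Yap1, Sav1 and Stk4 were called higher in Mettl3-ASO morulae, Stk4 only just under the threshold, and no member was called lower. The test was edgeR's quasi-likelihood test on counts with a term for batch, Benjamini-Hochberg adjusted over 9522 genes and called at an adjusted p under 0.05. With it, 49.4% of all tested genes were called, 25.4% higher and 24% lower, so 3 higher of 10 members is close to the share of all genes. No member was lower at an unadjusted p under 0.05 either, and DESeq2 (52% of genes called) also gave 3 higher and 0 lower. The members' changes were small beside those of other genes: the median absolute log2 fold change was 0.16 over the members and 0.51 over all tested genes. The signed median was 0.16 for the members and 0.01 for all genes, and the highest absolute value among members was 0.73. In pools of whole embryos, a change in how many cells express a gene and a change in RNA per cell cannot be told apart.

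Yap1 encodes YAP, the coactivator that the cascade restrains. Its FPKM in ASO-Control replicates 1 to 5 was 5.37, 2.77, 2.77, 3.22 and 2.67, and in Mettl3-ASO replicates 1 to 5 it was 6.42, 4.62, 4.67, 6.41 and 5.08. ASO-Control replicate 1 lay apart from the other controls and inside the Mettl3-ASO range, while the remaining 4 controls lay below every Mettl3-ASO library. Counts rose 1.59-fold (log2 fold change 0.67 ± 0.20 SE, adjusted p = 0.0141). In batch 2 alone Yap1 was the only member called, with a log2 fold change of 0.87 ± 0.22 (adjusted p = 0.0105), where 39% of all genes were called (20.2% higher and 18.9% lower). In the 4 untagged libraries it was 0.39 ± 0.40 (adjusted p = 0.558), where 6.26% were called (3.79% higher and 2.47% lower). The call held with each library left out in turn, with log2 fold changes of 0.58 to 0.87. Yap1 lies at chr9:7931999-8004596 (GRCm38, minus strand), and 2.78% of its exon bases overlap Gm20416 on the opposite strand.

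Wwtr1 encodes TAZ, the close relative of YAP. Its FPKM was 18.1, 13.28, 11.45, 12.27 and 10.13 in ASO-Control replicates 1 to 5 and 24.14, 10.77, 15.9, 14.53 and 11.22 in Mettl3-ASO replicates 1 to 5. The groups overlapped, and replicate 1 was highest in both. The log2 fold change was 0.18 ± 0.18 (adjusted p = 0.418). Per length, Wwtr1 was above Yap1 in all 10 libraries, by 2.21-fold to 4.79-fold. The log2 ratio of Yap1 over Wwtr1 was −1.98 ± 0.19 (SD, n = 5), from −2.26 to −1.75, in ASO-Control. It was −1.44 ± 0.36 (SD, n = 5), from −1.91 to −1.14, in Mettl3-ASO, so the ranges overlapped.

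Sav1, the scaffold that joins the MST kinases to LATS, had the highest log2 fold change of the 10 genes over all libraries. Yap1 was above it in batch 2 (0.87 against 0.57), without ASO-Control replicate 1 (0.87 against 0.61), without Mettl3-ASO replicate 2 (0.75 against 0.59) and without replicate 1 of both groups (0.85 against 0.68). Its FPKM was 3.06, 4.49, 2.75, 2.31 and 2.56 in ASO-Control replicates 1 to 5, and 6.69, 8.74, 3.76, 4.09 and 3.75 in Mettl3-ASO replicates 1 to 5. Within each batch every Mettl3-ASO library lay above every control, although ASO-Control replicate 2, an untagged library, exceeded the 3 Mettl3-ASO libraries of batch 2. Counts rose 1.66-fold (log2 fold change 0.73 ± 0.21, edgeR adjusted p = 0.0104). Within batches Sav1 was not called, at 0.57 ± 0.25 in batch 2 (adjusted p = 0.092) and 1.0 ± 0.41 in the untagged libraries (adjusted p = 0.175). Left-out libraries gave 0.59 to 0.79, all called. Sav1 lies at chr12:69965012-69987002 (minus strand), and 52.9% of its exon bases overlap Atl1 on the opposite strand. The sources used here do not state whether counting used strand, so reads of the 2 genes cannot be told apart where they overlap. Atl1, below the level for testing, had 0.09 to 0.51 FPKM in ASO-Control and 0.39 to 1.93 in Mettl3-ASO.

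Stk4 encodes MST1, the more abundant of the MST kinase transcripts here. Its FPKM was 12.87, 13.66, 14.45, 12.58 and 14.04 in ASO-Control replicates 1 to 5 and 16.9, 22.98, 18.12, 15.61 and 16.88 in Mettl3-ASO replicates 1 to 5. It was the only member whose groups did not overlap, which was also so for 25.6% of all tested genes. Counts rose 1.3-fold (log2 fold change 0.38 ± 0.15, edgeR adjusted p = 0.0479). This call sat at the threshold. It was lost, at adjusted p of 0.0522 to 0.131, when any one control library or one of Mettl3-ASO replicates 2, 3 and 5 was left out. Without Mettl3-ASO replicate 2 the log2 fold change was 0.23. It was also lost with median-ratio scaling (adjusted p = 0.0546), with no batch term (adjusted p = 0.0798) and with no filter on low genes (adjusted p = 0.124). Within batches the log2 fold change was 0.27 ± 0.15 in batch 2 (adjusted p = 0.192) and 0.56 ± 0.29 in the untagged libraries (adjusted p = 0.257).

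Stk3, which encodes the sister kinase MST2, was at 2.18 to 6.53 FPKM in ASO-Control and 2.66 to 7.87 in Mettl3-ASO. The ranges overlapped almost entirely, and the log2 fold change was −0.13 ± 0.23 (adjusted p = 0.679). Stk4 exceeded Stk3 per length in all 10 libraries, by 2.09-fold to 6.81-fold. The log2 ratio of Stk3 over Stk4 was −1.67 ± 0.63 (SD, n = 5) in ASO-Control and −2.11 ± 0.63 (SD, n = 5) in Mettl3-ASO.

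The LATS kinases, which phosphorylate YAP and TAZ, had no call. Lats1 was at 0.89 to 1.93 FPKM in ASO-Control and 1.12 to 1.99 in Mettl3-ASO, with a log2 fold change of −0.01 ± 0.22 (adjusted p = 0.970). Lats2 was at 13.15, 9.51, 9.56, 10.51 and 9.11 FPKM in ASO-Control replicates 1 to 5 and 8.89, 9.84, 12.92, 10.78 and 11.04 in Mettl3-ASO replicates 1 to 5. Its groups overlapped, with a log2 fold change of 0.16 ± 0.16 (adjusted p = 0.439). Per length Lats2 exceeded Lats1 in all 10 libraries, by 4.47-fold to 11.5-fold.

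That gap depends on which Lats2 transcript the reads were assigned to. The 2 RefSeq transcripts of Lats2 were matched to GENCODE models. The full model has 5191 bases, of which 3129 are coding, and the short one has 786 bases in 2 exons, of which 531 are coding. The deposited tables give a mean transcript length per gene, weighted by estimated abundance, and for Lats2 it was 1777 to 2254 bases in ASO-Control and 1693 to 2368 in Mettl3-ASO. If only these 2 transcripts are present, the short one made up 73.4% ± 4.03 (SD, n = 5) of Lats2 transcripts in ASO-Control and 68.6% ± 6.44 (SD, n = 5) in Mettl3-ASO, and the groups overlapped. The full transcript alone would then be at 2.75 ± 0.487 FPKM (SD, n = 5) in ASO-Control and 3.29 ± 0.419 in Mettl3-ASO, still above Lats1 on average. The estimate is approximate, since its lengths are those of GENCODE models and the sources used here do not name the annotation release behind the tables. In GENCODE, 53.2% of Lats2 exon bases overlap Gm49361 on the same strand, so reads of these genes cannot be told apart there.

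**Figure D2:**
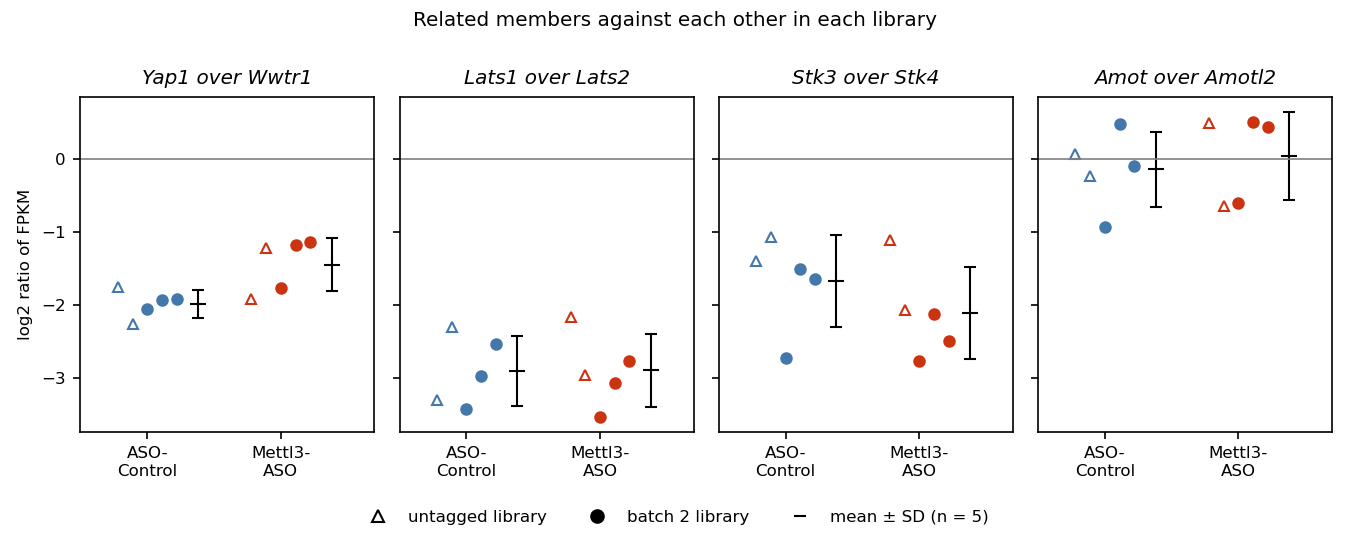
Log2 ratio of FPKM (vertical axis) between related Hippo genes in each library, by group; open triangles are untagged libraries, filled circles batch 2, and bars the mean ± SD of 5 libraries. Yap1, Lats1 and Stk3 lie below their relatives in all 10 libraries, while Amot lies below Amotl2 in 5 of 10.

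Nf2 and the angiomotins, which act upstream at cell contacts, had no call. Amot was at 2.82 to 8.96 FPKM in ASO-Control and 2.89 to 7.29 in Mettl3-ASO (log2 fold change 0.16 ± 0.27, adjusted p = 0.647). Amotl2 was at 3.02 to 8.55 and 4.39 to 7.47 (log2 fold change −0.05 ± 0.22, adjusted p = 0.848). Both genes varied about 3-fold between control libraries. Neither angiomotin was the higher one throughout: the log2 ratio of Amot over Amotl2 ran from −0.93 to 0.48 in ASO-Control and from −0.64 to 0.51 in Mettl3-ASO.

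Nf2 encodes Merlin, which brings LATS to the membrane. Its counts gave a log2 fold change of 0.02 ± 0.16 (adjusted p = 0.914), while its FPKM was 9.86 to 12.80 in ASO-Control and 7.87 to 11.22 in Mettl3-ASO, for a log2 difference of −0.21 ± 0.14 on the log2(FPKM + 1) scale (limma adjusted p = 0.229). The sign differs between the 2 scales because FPKM is divided by the estimated transcript length, which was longer in Mettl3-ASO. That length was 3418, 3023, 2748, 3008 and 2876 bases in ASO-Control replicates 1 to 5 and 3825, 4348, 3258, 3342 and 3501 in Mettl3-ASO replicates 1 to 5. The groups overlapped only through ASO-Control replicate 1, and within each batch they did not overlap. Length was compared with limma on the log2 scale, with a batch term, over the 2615 genes where it varied. It was longer by 0.27 ± 0.05 for Nf2 (adjusted p = 0.0259), and 8.37% of those genes were called, 2.29% as longer. The call was lost with the replicate number as a block (adjusted p = 0.102) and with no batch term (adjusted p = 0.107). Single libraries mattered too: the adjusted p was 0.0651 without control 3, 0.0581 without control 5 and 0.0612 without Mettl3-ASO replicate 5. The call was absent within batch 2 (0.0994) or the untagged libraries (0.482). RefSeq transcripts of Nf2 matched to GENCODE measured 1795 to 4720 bases, with 1565 to 1791 coding bases. For Lats2 the length difference was 0.14 ± 0.10 (adjusted p = 0.492).

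**Figure D3:**
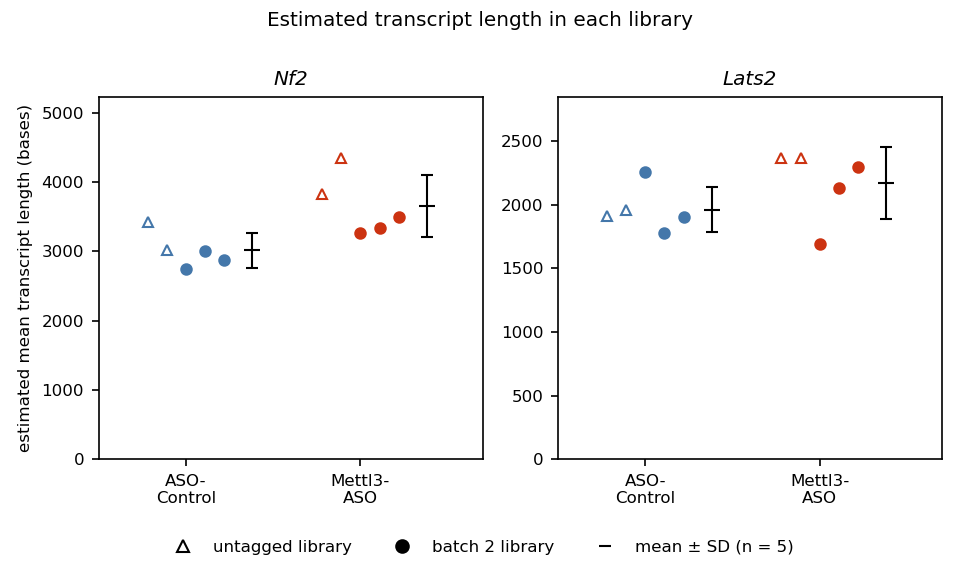
Estimated mean transcript length in bases (vertical axis, from 0) of Nf2 and Lats2 in each library, by group; open triangles are untagged libraries, filled circles batch 2, and bars the mean ± SD of 5 libraries. Nf2 runs from 2748 to 3418 bases in ASO-Control and from 3258 to 4348 in Mettl3-ASO, while the Lats2 groups overlap widely.

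No member's change differed detectably between the batches. The interaction of group and batch called 0 of 9522 genes (0%) in edgeR, with 159 genes and 0 members at an unadjusted p under 0.05. In the untagged libraries no member was called and 1 was at an unadjusted p under 0.05. Between the batches themselves, 0 members were called, beside 15.7% of all genes.

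**Figure D4:**
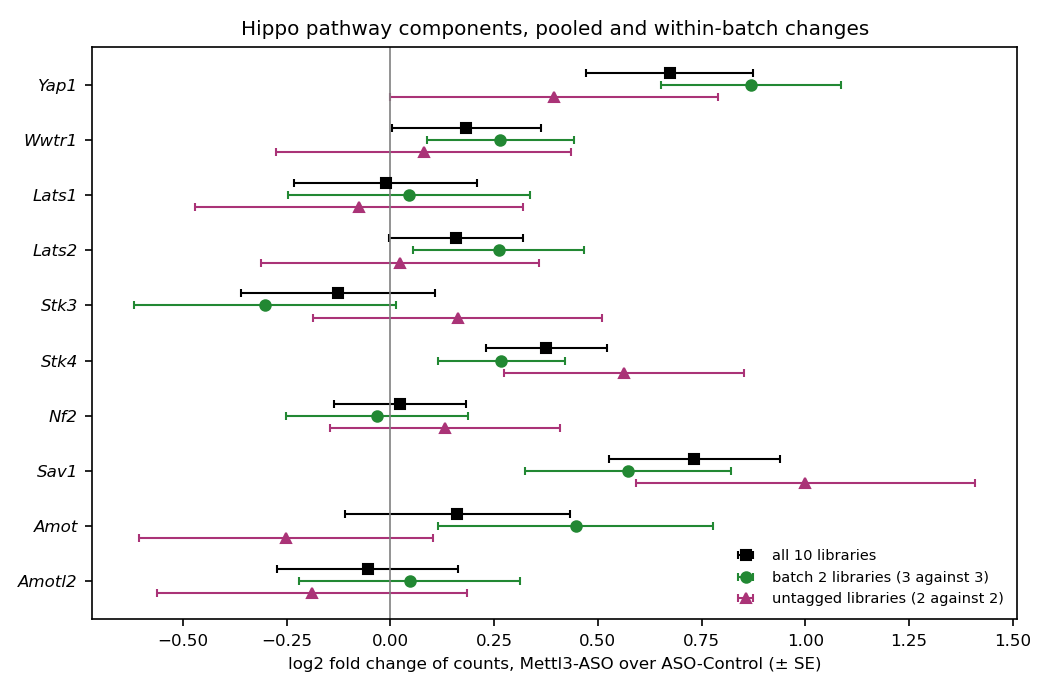
Log2 fold change of counts (horizontal axis, Mettl3-ASO over ASO-Control, bars ± SE) of the 10 Hippo genes over all 10 libraries (squares), in batch 2 (circles) and in the untagged libraries (triangles). Yap1, Stk4 and Sav1, and also Wwtr1 and Lats2, which had no call, lie above 0 in all 3 sets, and only Yap1 was called within a batch.

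Profiles of 6021 genes averaging 5 FPKM or more were compared with those of the called members, by the root mean square difference of centred log2(FPKM + 1). Predicted and clone names among them were passed over. By a fixed rule, the 2 remaining genes whose level followed each called member most closely over the 10 libraries were taken. For Yap1 they were Fam98a (0.127) and Rpain (0.140). For Stk4 they were Aasdhppt (0.0851) and Mphosph10 (0.104). For Sav1 they were Asb8 (0.147) and Wwp2 (0.154). The genes are listed for likeness of profile alone.

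Around the 10 members, 86 other genes of the pathway were found in the tables, and 55 reached the mean of 1 FPKM for testing. Of these, 9 rose and 13 fell (40.0%, beside 49.4% of all tested genes), with a median log2 fold change of −0.08. The untagged libraries alone called 0 higher and 2 lower, the 14-3-3 genes Ywhaz and Ywhaq. Of all tested genes, 6.26% were called there, 3.79% higher and 2.47% lower. Changes among these neighbours reached further than among the 10 members themselves, up to −3.32 for Ywhaz.

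Partners of the kinase arm had 4 genes that rose and none that fell of 10 tested (40.0% called, beside 49.4% of all tested genes, 25.4% higher), with a median log2 fold change of 0.33. The share called in either direction was thus no higher than over all genes. The share called higher, 40.0% of 10 genes, was above the 25.4% over all genes, and that difference was not tested. Mob1a and Mob1b encode the adaptors through which MST activates LATS. Mob1a had 1.5 to 2.74 FPKM in ASO-Control and 3.46 to 6.68 in Mettl3-ASO, without overlap, and rose by 1.09 ± 0.26 (adjusted p = 0.00379). Mob1b went from 3.52 to 6.51 FPKM to a range of 5.88 to 9.96, overlapping only among untagged libraries, and rose by 0.82 ± 0.20 (adjusted p = 0.00505). Batch 2 gave it a log2 fold change of 1.20, and the untagged libraries 0.25. Taok1, a kinase that can activate MST, rose by 1.06 ± 0.20 (adjusted p = 8.2e-04), and Map4k5, of a family that can act on LATS beside MST, rose by 0.66 ± 0.15 (adjusted p = 0.00345).

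Apical and junctional inputs had 1 gene that rose and 2 that fell of 10 tested (30.0% called, beside 49.4% of all genes), with a median of −0.25. Ajuba, a LIM protein that binds LATS and holds it inactive at junctions, rose by 1.46 ± 0.21 (adjusted p = 1.2e-04) from 1.06 to 1.96 FPKM in ASO-Control to 2.59 to 6.21 in Mettl3-ASO. Frmd6, a FERM-domain protein placed upstream of the cascade, fell by 1.42 ± 0.31 (adjusted p = 0.00241), from 1.39 to 2.87 FPKM to 0.39 to 1.29. Rock2, a kinase of the actomyosin cortex, fell by 0.68 ± 0.17 (adjusted p = 0.00521). Amotl1, the third angiomotin gene, was at 0.02 to 0.25 FPKM in all libraries and was not tested.

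The STRIPAK complex, a phosphatase assembly that removes activating phosphates from MST, had 1 gene that rose and 3 that fell of 15 tested (26.7% called, beside 49.4% of all genes), with a median of −0.24. Its subunit gene Mob4 fell by 0.66 ± 0.09 (adjusted p = 1.2e-04), from 129 ± 15.0 to 84.8 ± 15.4 FPKM (SD, n = 5), and the phosphatase scaffold gene Ppp2r1a fell by 0.71 ± 0.14 (adjusted p = 0.00125). The kinase gene Stk24 rose by 0.54 ± 0.15 (adjusted p = 0.0107), with Mettl3-ASO replicate 1 at 47.66 FPKM and the others of its group at 22.44 to 25.87. Named after its values were seen, Ppp2ca, a catalytic subunit gene, fell by 0.38 ± 0.11 (adjusted p = 0.0118). Ppp2cb, the other catalytic subunit gene and also named afterwards, had no call, at 0.23 ± 0.12 (adjusted p = 0.125). The Ppp2ca call was lost with limma on log2(TPM + 1) (adjusted p = 0.0524) and in batch 2 alone (edgeR adjusted p = 0.0874). The other 21 called genes of the 5 lists kept theirs in batch 2, where 39% of all tested genes were called. How many of all called genes kept their call there was not counted.

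Of 14 tested genes for the turnover and nuclear partners of YAP and TAZ, 2 rose and 6 fell (57.1% called, beside 49.4% of all genes), with a median of −0.13. The 14-3-3 proteins hold phosphorylated YAP in the cytoplasm. Ywhaz, a 14-3-3 gene, fell by 3.32 ± 0.17 (adjusted p = 6.6e-08), from 337 to 470 FPKM in ASO-Control to 23.6 to 69.3 in Mettl3-ASO. Ywhaq fell by 1.02 ± 0.10 (adjusted p = 1.1e-05). Named after their values were seen, Ywhae fell by 0.61 ± 0.11 (adjusted p = 4.9e-04) and Ywhah rose by 0.39 ± 0.09 (adjusted p = 0.00366; 0.0536 with no filter on low genes). The 14-3-3 genes resemble each other and have processed copies, so the division of shared reads among them is uncertain. Csnk1e, a kinase that primes YAP for degradation, rose by 0.87 ± 0.13 (adjusted p = 2.1e-04). Named after its values were seen, Btrc, the ubiquitin ligase adaptor of that step, fell by 0.73 ± 0.17 (adjusted p = 0.00398).

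The TEAD factors, the DNA-binding partners of YAP and TAZ, had 1 call among the 3 tested, beside 49.4% of all tested genes (24% lower). Tead4, the TEAD best known in the morula, was at 9.76 to 15.38 FPKM in ASO-Control and 11.04 to 20.32 in Mettl3-ASO, with a log2 fold change of 0.17 ± 0.13 (adjusted p = 0.274). Tead1 was at 1.88 to 3.31 and 0.68 to 2.11 FPKM and fell by 1.10 ± 0.22 (adjusted p = 0.00123). Tead2 was at 0.94 to 3.33 and 0.53 to 2.92 FPKM, with a log2 fold change of −0.27 ± 0.42 (adjusted p = 0.626). Tead3 did not exceed 0.33 FPKM and was not tested. Named after its values were seen, the TEAD cofactor gene Vgll1 fell by 1.65 ± 0.44 (adjusted p = 0.00788; −0.95 with limma on log2(TPM + 1)). On that log2(value + 1) scale Tead1 and Frmd6 moved by over 1.5 times too, Tead1 to −0.67 and Frmd6 to −0.79, with both calls kept.

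Among genes that YAP or TAZ regulate through TEAD, 7 were tested, of which 2 rose and 2 fell (57.1% called, beside 49.4% of all genes), with a median of 0.23. The trophectoderm genes were the 2 that fell. Gata3 had 30.1, 20.8, 14.22, 14.91 and 10.82 FPKM in ASO-Control replicates 1 to 5 and 15.77, 3.35, 1.52, 3.25 and 1.79 in Mettl3-ASO replicates 1 to 5. Mettl3-ASO replicate 1 lay inside the control range and the other 4 below it. Gata3 fell by 2.19 ± 0.37 (adjusted p = 3.8e-04), and its log2 fold change was −2.70 without that library. Cdx2 had 11.04, 4.58, 3.15, 5.02 and 2.00 FPKM in ASO-Control replicates 1 to 5 and 8.08, 0.99, 1.31, 1.20 and 1.60 in Mettl3-ASO replicates 1 to 5, with the same library apart. It fell by 1.15 ± 0.43 (adjusted p = 0.042). Without Mettl3-ASO replicate 1 it was −1.72 (adjusted p = 0.00353). The call was lost, at adjusted p of 0.0647 to 0.121, when any one of control replicates 1, 3 and 4 or of Mettl3-ASO replicates 3, 4 and 5 was left out. It was also lost with no batch term (0.123) and with limma (0.0565 to 0.0688). Ajuba, already described, and Asap1 (1.27 ± 0.24, adjusted p = 8.5e-04) rose. On the log2(TPM + 1) scale Asap1 was at 0.66 with limma, and its call was kept. Named after their values were seen, the remaining tested genes had no call. Ctgf was at 0.82 ± 0.32 (adjusted p = 0.0505). Cyr61 was at 0.23 ± 0.31 (adjusted p = 0.562) and Gadd45b at −0.10 ± 0.22 (adjusted p = 0.738). At adjusted p of 0.0241 and 0.0302, Ctgf was called higher with DESeq2 and with limma on log2(FPKM + 1). It was not called with median-ratio scaling (adjusted p = 0.0541) or with no batch term (adjusted p = 0.0588). Sox2, an inner-cell gene that YAP restrains, had a mean below 1 FPKM and was not tested, with replicate 1 highest in both groups (2.49 and 2.38 FPKM).

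**Figure D5:**
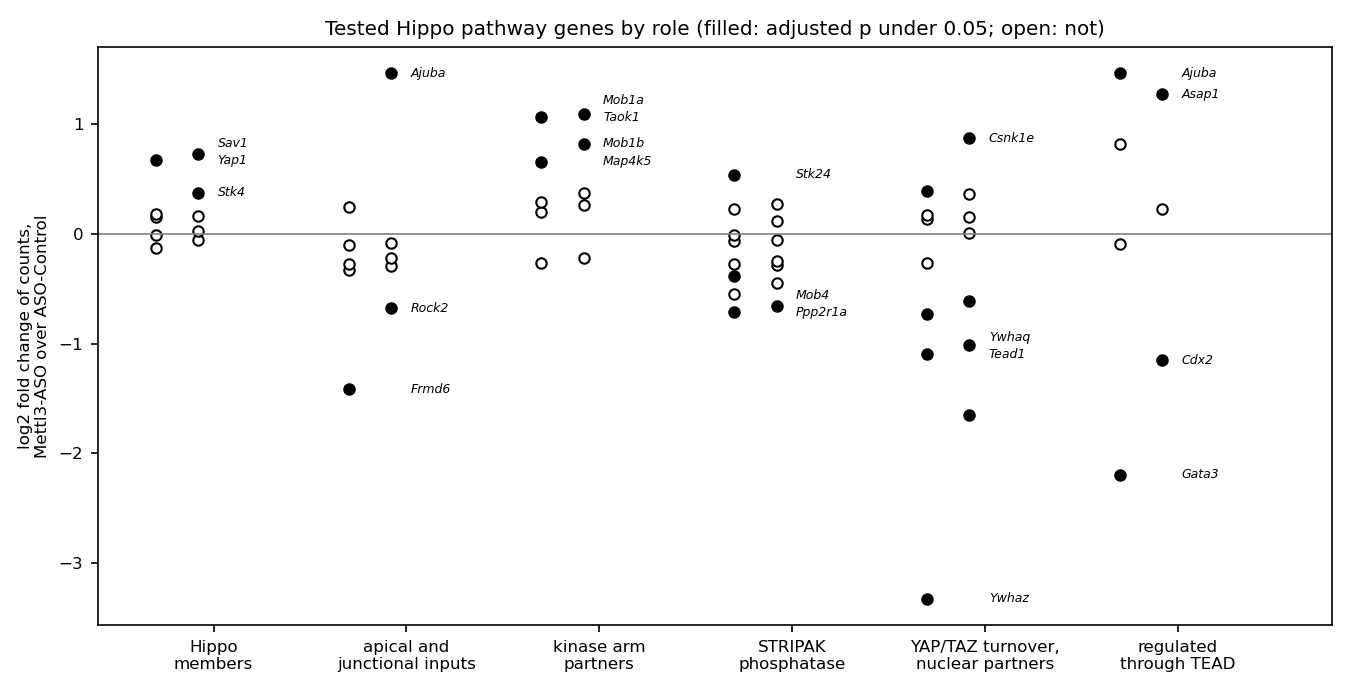
Log2 fold change of counts (vertical axis, Mettl3-ASO over ASO-Control) of the tested Hippo genes and of 5 lists of other pathway genes; filled points have an adjusted p under 0.05, open points do not, and points are spread sideways only for legibility. The 10 members stay within −0.13 to 0.73, while the other lists reach from −3.32 (Ywhaz) to 1.46 (Ajuba).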

How the data were processed

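RNA of 10 mouse morula libraries, 5 per group, was analysed from 1 gene table per library in RSEM's format. STAR 2.7.10, RSEM 1.3.3 and build mm10 are named in the submitters' processing notes. The sources used here give no annotation release or strand setting. The authors deposited expected counts, in which reads matching several genes are shared out by estimation, with FPKM, TPM and a mean transcript length (in bases, unit other) weighted by estimated abundance. FPKM and TPM are scaled to length and library total by the authors, so they show shares of a library and not RNA per embryo.

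Expected counts were rounded and tested with edgeR 4.0.16 in R 4.3.3 (glmQLFit and glmQLFTest, TMM scaling, terms for batch and group), over the 9522 genes whose mean FPKM reached 1. Adjusted p-values are Benjamini-Hochberg values over those genes, from edgeR unless another tool is named. Fold changes are Mettl3-ASO over ASO-Control on the log2 scale, with the SE after ±. DESeq2 1.42.0 and limma 3.58.1, on log2(FPKM + 1), log2(FPKM + 0.1) and log2(TPM + 1), were alternatives. The test scripts were tested on simulated data. FPKM values and ratios between related genes are given without a test. All 8 pairs of libraries that share group and batch differed by more than sampling noise, with a chi-square of at least 15.7 per degree of freedom. Depth per library sets the precision of low genes: Lats1 had 88 to 356 counts per library.

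Replicate numbers come from the titles. Across genes, the deviations from group and batch means of libraries with 1 number correlated at 0.273 for numbers 1 and 2, which are 1 value by construction, and at 0.174, 0.147 and 0.105 for 3, 4 and 5. Each is above 0.1, so a fit with the number as a block was run beside the others.

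The 10 members and all gene lists were chosen with earlier results of these data known. Of each list of other pathway genes the 3 tested genes with the smallest p are named, together with Tead1 to Tead4, Mob1a, Mob1b, Amotl1, Cdx2, Gata3 and Sox2. Of 88 listed names, 86 were found, with Ccn1 and Ccn2 under their older symbols. Transcript models were from GENCODE on GRCm38, joined by RefSeq accession, with the symbol also required to match for the GGACT search. Promoter windows were from RefSeq GRCm38.p6, joined by symbol. The estimated-length comparison and its alternatives were chosen after seeing the data, as were the counts of other pathway genes within batches, without replicate 1 of both groups, and with limma on log2(FPKM + 0.1) and log2(TPM + 1).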

Additional observations from a re-analysis of the deposited data

Results flagged for a closer look

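In 9 of 64 groups of 5 libraries, 1 library lay further from the rest than Dixon's 95% limit of 0.71 of the group's range. For independent values from a single normal distribution, chance gives this in about 1 in 20 groups. The groups here mix 2 batches and share their libraries, so that rate is not an expectation for them. Among the Hippo genes these were Yap1 in ASO-Control replicate 1, at 5.37 FPKM with the other controls at 2.67 to 3.22, and Amotl2 in Mettl3-ASO replicate 2, at 7.47 FPKM with the others at 4.39 to 5.19. Among the other pathway genes, Taok1 stood at 13.86 FPKM in ASO-Control replicate 2, with the others at 9.20 to 10.25. Mettl3-ASO replicate 1 accounted for 5 more. Stk24 was at 47.66 FPKM there, Gata3 at 15.77, Cdx2 at 8.08 (others 0.99 to 1.60), Tead3 at 0.33 (others at most 0.04) and Sox2 at 2.38 (others 0.11 to 0.67). Sox2 was also at 2.49 FPKM in ASO-Control replicate 1, with the other controls at 0.14 to 0.71.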

How the results depend on the processing

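Beside the fit reported, 12 other settings and 10 fits that each left out 1 library were run for the members. The count of members called higher was 3. It was 1 with a mean FPKM of at least 5 (6 members tested), 1 in batch 2 alone, 0 in the untagged libraries alone and 2 to 3 with a library left out. No setting called a member lower. With the replicate number as a block 3 members were again called higher, Lats1 was at 0.0100, and 12 other pathway genes were called higher and 16 lower. The block ended no call other than that of Nf2 length. The other pathway genes called numbered 0 higher and 2 lower in the untagged libraries, where 6.26% of all genes were called. They numbered 9 to 12 higher and 12 to 13 lower with a library left out. Shares of all genes called were not counted with the block or with a library left out, so those counts stand without a background. Signs turned only in genes with no call. Lats1 was at 0.0284 with limma on log2(FPKM + 1), 0.0509 at a pseudocount of 0.1, 0.0390 on TPM and 0.0444 in batch 2. Nf2 was at −0.21, −0.23 and −0.19 on those 3 limma scales, −0.0268 with no filter and −0.0320 in batch 2. Amotl2 was at 0.0049, 0.0159 and 0.0241 on the same scales, 0.0015 at a mean FPKM of at least 5, 0.0470 in batch 2 and 0.14 without replicate 1 of both groups. In the untagged libraries Stk3 was at 0.16 and Amot at −0.25. With a library left out, Lats1 ran from −0.13 to 0.10, Nf2 from −0.0566 to 0.12, Amotl2 from −0.17 to 0.11 and Stk3 from −0.25 to 0.0091. The cause was not tested.

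With depth-scaled counts in place of FPKM, which leaves transcript length in the ratio, the log2 ratio of Yap1 over Wwtr1 was −2.19 in ASO-Control, Lats1 over Lats2 −0.89 in ASO-Control and −1.04 in Mettl3-ASO, Stk3 over Stk4 −2.55 and −3.00, and Amot over Amotl2 0.62 and 0.80. The 2 untagged libraries per group limit what that batch can show: 6.26% of genes were called there, and 39% in batch 2. Fragments carry no molecular identifiers. RNA levels say nothing of phosphorylation or location of the proteins.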

Other observations

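Between the batches, Stk3 and Sav1 had the members' most negative batch terms, with a log2 difference of batch 2 over untagged of −0.61 (adjusted p = 0.098) and −0.54 (adjusted p = 0.0949) in edgeR. Neither was called. Estimated transcript length hardly varied for the coactivators: Yap1 ran from 4131 to 4164 bases and Wwtr1 from 4713 to 4750 over the 10 libraries. Amot was at 6958 bases in all libraries but Mettl3-ASO replicate 2, at 6927, which is close to the long transcript of 6957 bases with 3381 coding bases and far from the short one of 2392. By that measure nearly all Amot reads were assigned to the long form, in contrast to Lats2.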
